A study of Mus musculus with 26 samples.

Results

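Control C2C12 cells were compared between growth medium (GM) and day 3 of differentiation (DM3) in 4 mRNA-seq libraries, 2 per condition, which were picked by their labels from the 26 samples of the series. C2C12 is a mouse skeletal myoblast line that divides in serum-rich medium and fuses into multinucleated myotubes once confluent cells are moved to a medium with little horse serum. The GM libraries came from cells on day 0, in medium with fetal bovine serum, and the DM3 libraries from cells kept for 3 days in the horse serum medium. In the same experiment a C2C12 line with reduced Mettl3, the gene of the m6A methyltransferase METTL3, was sequenced at both stages, and the series also holds lines that overexpress Mettl3 and a time course of injured muscle. The sources name the control cells only as a control or wild-type group: which vector, if any, they carried, and whether they were 1 clone, is not given in the sources used here. They also do not say whether replicates 1 and 2 were separate cultures, so p-values measure a spread between replicate libraries that may be technical. That spread was taken over all 8 libraries of the experiment, those of the line with reduced Mettl3 included. All values below are FPKM, that is, counts of sequenced fragments divided by transcript length and by a scaling factor of the library, and the 2 values of a group are always given as replicate 1 and then replicate 2.

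Myoblast differentiation is driven by a family of basic helix-loop-helix factors (Myf5, MyoD, myogenin and Myf6) that bind E-boxes in muscle promoters together with factors of the Mef2 family, and it is held back in growing cells by Id proteins, which take up the partners of those factors. As the programme proceeds, cells leave the cell cycle, align and fuse through the membrane proteins myomaker and myomixer, and switch on the genes of the contractile apparatus, of the triad that couples excitation to calcium release, and of the acetylcholine receptor. C2C12 myotubes use embryonic and cardiac isoforms of many of these proteins before the adult ones.

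The labels were checked against muscle markers first. All 10 muscle identity markers were detected, and for each of them both DM3 libraries lay above both GM libraries (24.8% of all genes tested). Their summed FPKM made up 0.0615% and 0.0104% of all FPKM outside ribosomal RNA genes in GM and 0.363% and 0.306% on DM3. Mettl3 itself, which no treatment targeted in these cells, was at 4.697 and 5.65 FPKM in GM and 4.68 and 5.15 FPKM on DM3, so the groups overlapped. Lists of other cell types held both genes at 0 and genes at clear levels. Of 12 leukocyte markers, between 7 and 8 were at 0 in a library, among them Ptprc, Adgre1 and C1qa in all 4, while Cd14 was at 15.8 and 15.4 FPKM in GM and 5.98 and 7.08 FPKM on DM3. Of 10 endothelial markers, between 5 and 6 were at 0, among them Cdh5 in all 4, and no member passed 1 FPKM. The adipocyte markers summed to 0.0717% and 0.0153% of FPKM in GM and 0.015004% and 0.0135% on DM3. In both GM libraries this was above the share of the muscle identity markers. Plin4 was at 108 and 17.8 FPKM in GM and 19.9 and 18.1 FPKM on DM3. Cebpa was at 72.3 and 36.2 FPKM in GM and 12.8 and 12.9 FPKM on DM3. Adipoq had at most 0.251 FPKM, and Cfd, Retn, Lep and Cidec were at 0. The osteoblast and cartilage markers summed to 0.00511% and 0.00544% of FPKM in GM and 0.005297% and 0.00345% on DM3, with Acan, Col2a1, Matn1 and Ibsp at 0. The fibroblast markers summed to 0.725% and 0.522% of FPKM in GM and 0.208% and 0.196% on DM3, led by Ly6a and S100a4, and the part of other cell types in the results was not tested. In bulk RNA, more cells of a kind and more RNA per cell cannot be told apart, which holds for every result below.

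The libraries differed in depth and composition. Low FPKM values fell on whole multiples of 1 read for 98.80 to 98.98% of low values (within 0.05 of a read), which gave 29194858 and 14230094 reads on genes in GM and 25916755 and 16380694 on DM3. Ribosomal RNA loci took 0.589% and 29.6% of those reads in GM and 0.542% and 8.43% on DM3. The FPKM divisor was not the read total: 1 read over 1 kb of exon was worth 0.0315 and 0.104 FPKM in GM and 0.0365 and 0.0601 FPKM on DM3. Outside ribosomal RNA, FPKM summed to 389494.6 in GM replicate 2 and to between 257431.4 and 273830.7 in the other libraries. GM replicate 2 stood apart in these measures of composition. The log2 values of both GM libraries correlated at r = 0.862 across the 13824 genes tested, as a description across genes. Between both DM3 libraries r was 0.969. A correlation between the GM libraries cannot say which of them is the unusual one. The root mean square difference between replicates was 1.304 on the log2 scale in GM and 0.581 on DM3, so the GM pair spread more than the DM3 pair. Results are therefore given with both GM values, and with GM replicate 2 left out where that changed them. Calls of single genes with GM replicate 1 left out are not printed. The printed losses therefore show the dependence on GM replicate 2 only, and a gene printed as missed could be called without GM replicate 1.

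How much of the transcriptome changed between GM and DM3 was asked with limma on log2(FPKM + 0.1), fitted over all 8 libraries of the experiment. The table lists 55487 genes, and a gene can pass the filter on low values through the group where it is high. Signs and medians of a list can therefore be partly set by the filter. The filter (0.5 FPKM or more in 2 or more of the 8 libraries) left 13824 genes, of which 106 (0.767%) rose on DM3 and 52 (0.376%) fell (adjusted p no higher than 0.05). When a log2 fold change of 2 or more was also required, 74 genes (0.535%) were higher and 22 (0.159%) lower. The median log2 fold change over all tested genes was -0.0206. At an unadjusted p under 0.05, 1397 genes were higher and 1123 lower. Protein-coding genes made up 145 of the 158 calls. Both DM3 libraries lay above both GM libraries for 3422 genes (24.8%) and below them for 3100 (22.4%). Separation of the 4 values was therefore common and is not a call. These shares over all genes are the background for each count of list members. An exact permutation test of 2 against 2 libraries cannot give a two-sided p below 0.333.

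The count of calls depended on single libraries. Same-numbered libraries deviated together in all 4 groups, and with the replicate number as a block 258 genes (1.87%) were higher and 153 (1.11%) lower, among them all 158. Without GM replicate 2, 87 genes were higher and 55 lower, and 83 of the 158 calls remained. Without GM replicate 1, 1767 were higher and 1917 lower, and all 158 remained. Without DM3 replicate 1, limma called 0 genes (527 higher and 505 lower at an unadjusted p under 0.05), and without DM3 replicate 2 it also called 0 (794 and 544). The fit of the 4 control libraries alone called 0 genes as well, with 798 higher and 616 lower at an unadjusted p under 0.05 and a lowest adjusted p of 0.16. All 158 genes kept their direction and an unadjusted p under 0.05 in each of these fits. Where a fit leaves 1 library in a group, that library is assumed to vary like the other groups.

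**Figure D1:**
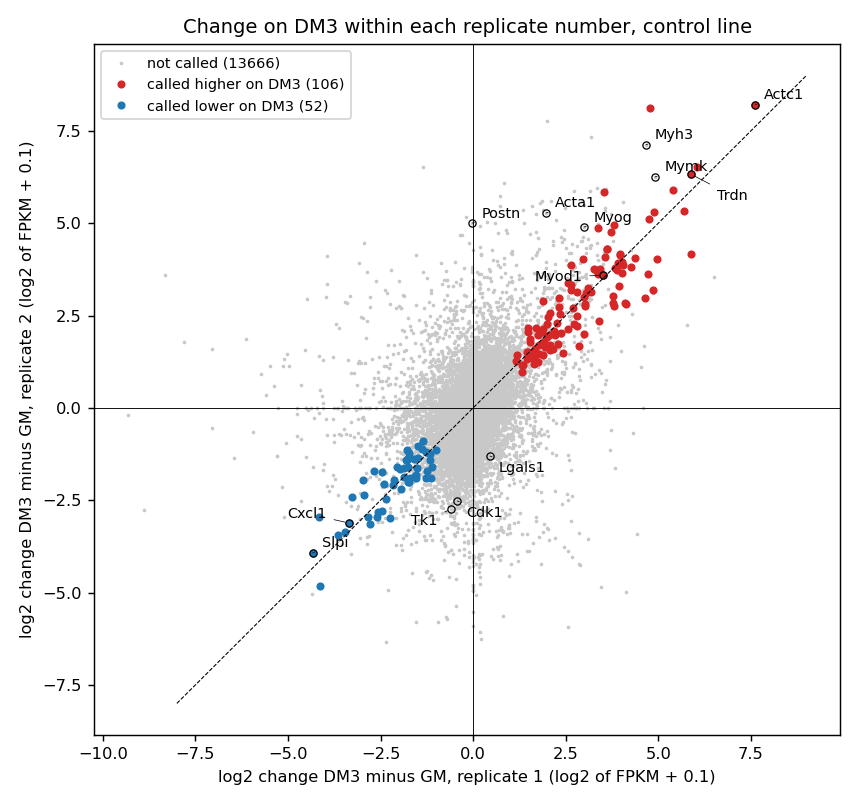
Each point is 1 of the 13824 tested genes, with its log2 change from GM to DM3 in replicate 1 on the x axis and in replicate 2 on the y axis (log2 of FPKM + 0.1, dashed line where both are equal). The 106 genes called higher (red) and the 52 called lower (blue) sit close to the dashed line, while Postn and Acta1 changed more in replicate 2 than in replicate 1 and Cdk1 fell below 0 mainly in replicate 2.

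Among the transcription factors of myogenesis, Myod1 and Mef2a rose. Myod1 (ENSMUSG00000009471, chr7:46376474-46379099, GRCm38), which encodes the lineage factor MyoD, was at 2.59 and 2.504 FPKM in GM and 30.5 and 31.2 FPKM on DM3 (log2 fold change 3.55 ± 0.41 SE, adjusted p = 0.026). Mef2a, a MADS-box partner of the myogenic factors, was at 6.53 and 3.94 FPKM in GM and 28.1 and 23.7 FPKM on DM3 (log2 fold change 2.32 ± 0.29 SE, adjusted p = 0.032). Myog, the gene of myogenin, was at 11.1 and 2.701 FPKM in GM and 89.1 and 83.3 FPKM on DM3, with both DM3 values far above both GM values but the GM values well apart (log2 fold change 3.95 ± 1.66 SE, adjusted p = 0.28). Myf5, another lineage factor, was at 4.67 and 2.19 FPKM in GM and 17.9 and 21.8 FPKM on DM3 (adjusted p = 0.13). Myf6 and Mef2c, which mark later stages, stayed under the filter, with at most 0.333 FPKM of Myf6 and 0.0394 FPKM of Mef2c in any library. Over the 18 listed factors, 14 were tested, 2 rose and 0 fell (0.767% and 0.376% of all genes). The median log2 fold change was 0.90, against -0.0206 over all genes. The call of Myod1 was lost without GM replicate 2 (adjusted p = 0.053).

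Progenitor genes and repressors of myogenesis moved in both directions. Id1, an inhibitor that sequesters the partners of MyoD, fell from 46.4 and 66.2 FPKM in GM to 6.44 and 8.44 FPKM on DM3 (log2 fold change -2.89 ± 0.29 SE, adjusted p = 0.022). Id3 was at 125 and 355 FPKM in GM and 33.5 and 46.6 FPKM on DM3 (adjusted p = 0.12, adjusted p = 0.026 with the replicate block), and Id2 at 13.7 and 47.1 FPKM in GM and 8.11 and 9.49 FPKM on DM3 (adjusted p = 0.27). In contrast, 4 members of the same list rose. Spry1, an antagonist of growth factor signalling, was at 1.27 and 0.499 FPKM in GM and 8.35 and 8.68 FPKM on DM3 (log2 fold change 3.25 ± 0.43 SE, adjusted p = 0.037), and 24.4% of its exon length overlaps another gene model. Cxcr4, the receptor of the chemokine Cxcl12, was at 1.72 and 1.37 FPKM in GM and 15.6 and 13.99 FPKM on DM3 (log2 fold change 3.18 ± 0.41 SE, adjusted p = 0.034), and Zeb1, a zinc finger repressor, was at 8.77 and 6.08 FPKM in GM and 29.97 and 24.3 FPKM on DM3 (log2 fold change 1.87 ± 0.27 SE, adjusted p = 0.04). The other riser of the list, the laminin receptor subunit Itga7, is a component of the mature muscle membrane and is described there. Pax7, the satellite cell factor, did not pass the filter and had at most 0.0373 FPKM. Of 26 listed genes 16 were tested, 4 rose and 1 fell (0.767% and 0.376% of all genes), with a median of -0.13. With the replicate block, which added Id3 and Twist2, 4 rose and 3 fell (1.87% and 1.11% of all genes). Zeb1 and Twist2 were chosen after their values were seen. The calls of Cxcr4 and Zeb1 were lost without GM replicate 2 (adjusted p = 0.067 for each).

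In the Notch pathway, which keeps progenitors undifferentiated, the ligand Dll1 was the one called member. Dll1 rose from 0.514 and 0.736 FPKM in GM to 9.26 and 8.15 FPKM on DM3 (log2 fold change 3.62 ± 0.26 SE, adjusted p = 0.015), and 20.5% of its exon length overlaps an antisense gene. Hes6, a Hes family member that favours myogenesis, was at 13.2 and 20.2 FPKM in GM and 33.3 and 41.3 FPKM on DM3 (adjusted p = 0.1), and Hes1, a direct Notch target, at 0.926 and 5.24 FPKM in GM and 9.88 and 9.998 FPKM on DM3 (adjusted p = 0.31), with the larger part of the spread of Hes1 between the GM libraries. Of 25 listed genes 17 were tested, 1 rose and 0 fell (0.767% and 0.376% of all genes), and their median was 0.43.

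Of the genes of cell adhesion and fusion, 2 rose on DM3. Cdh15, the gene of M-cadherin, was at 1.29 and 2.04 FPKM in GM and 43.3 and 34.6 FPKM on DM3 (log2 fold change 4.49 ± 0.67 SE, adjusted p = 0.044). Cd82, a tetraspanin of the myoblast surface, was at 34.1 and 47.6 FPKM in GM and 107 and 109 FPKM on DM3 (log2 fold change 1.42 ± 0.21 SE, adjusted p = 0.044). Mymk, the gene of the fusogen myomaker, was at 6.49 and 2.26 FPKM in GM and 199 and 180.0 FPKM on DM3 (log2 fold change 5.58 ± 1.23 SE), which missed the threshold in the fit without a block (adjusted p = 0.1) and passed it with the block (0.045). Mymx, the gene of its partner myomixer, was at 1.07 and 0.101 FPKM in GM and 7.56 and 11.6 FPKM on DM3 (adjusted p = 0.13). For both fusogen genes every DM3 value lay above every GM value. Jam2, a junctional adhesion protein, was at 19.6 and 11.8 FPKM in GM and 26.5 and 24.1 FPKM on DM3 (adjusted p = 0.23). Of 38 listed genes 31 were tested, 2 rose and none fell in this fit (0.767% and 0.376% of all genes). With the block 4 rose, Mymk and Ncam1 in addition (1.87% of all genes). Both DM3 values lay above both GM values for 17 and below them for 5 (24.8% and 22.4% of all genes). The median log2 fold change was 0.75. Ncam1 was chosen after its values were seen. The call of Cdh15 was lost without GM replicate 2 (adjusted p = 0.074).

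**Figure D2:**
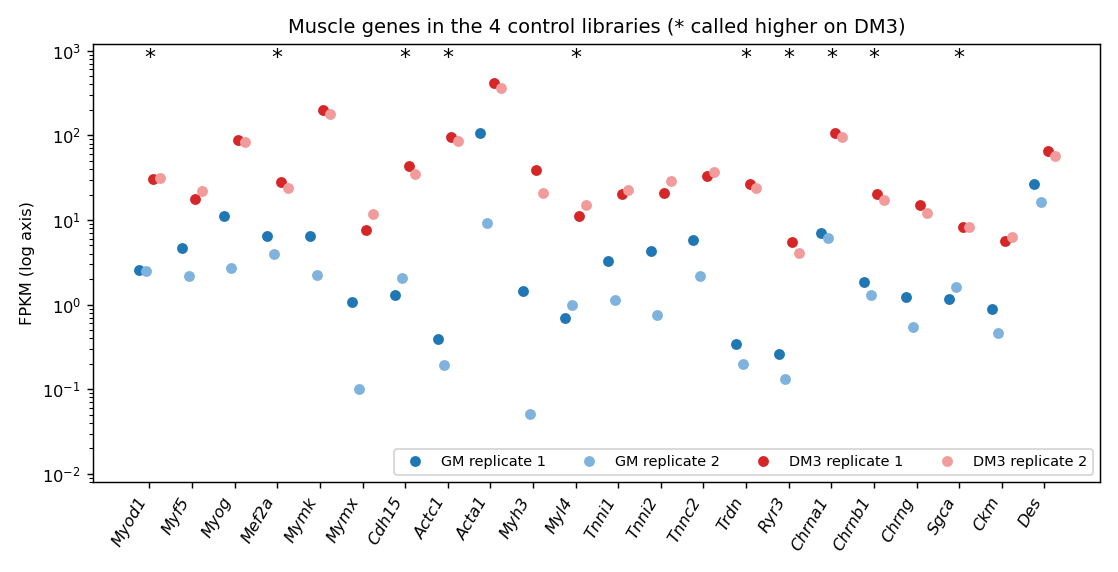
FPKM (log axis) of 22 muscle genes in the 4 control libraries, 1 point per library, with an asterisk over the 10 genes called higher on DM3. In every gene shown both DM3 libraries (red) lie above both GM libraries (blue), and the gap between the GM libraries is wide for Acta1, Myh3, Mymx, Tnni2 and Myog, which were not called, and narrow for Myod1, Chrna1 and Chrnb1, which were.

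Sarcomere genes were led by an early isoform, cardiac alpha-actin. Actc1 (ENSMUSG00000068614, chr2:114047282-114053548), the gene of cardiac alpha-actin that early myotubes use, was at 0.389 and 0.192 FPKM in GM and 95.9 and 86.1 FPKM on DM3 (log2 fold change 7.91 ± 0.84 SE, adjusted p = 0.023), the largest rise of all called genes. Acta1, the gene of adult skeletal alpha-actin, was at 106 and 9.24 FPKM in GM and 414 and 362 FPKM on DM3 (adjusted p = 0.3), and it had the higher FPKM of these actins in every library. Of 20 thin filament genes 17 were tested, and Actc1 alone passed the threshold (0.767% of all genes were called higher). Both DM3 values lay above both GM values for 16 (24.8% of all genes). The median log2 fold change of the list was 3.13. With the replicate block 4 rose, Tpm2, Tnnt2 and Tmod1 in addition (1.87% of all genes). The troponin genes of slow and fast fibres did not pass the test: Tnni1 was at 3.32 and 1.12 FPKM in GM and 20.5 and 22.3 FPKM on DM3 (adjusted p = 0.19) and Tnni2 at 4.31 and 0.761 FPKM in GM and 20.7 and 28.9 FPKM on DM3 (adjusted p = 0.14). Tnnc2, the gene of fast troponin C, was at 5.78 and 2.2005 FPKM in GM and 33.2 and 36.4 FPKM on DM3 (adjusted p = 0.12), and 74.0% of its exon length overlaps Ube2c on the other strand, so that reads of the pair cannot be told apart unless strand was used in counting. Tpm2, Tnnt2 and Tmod1 were chosen after their values were seen.

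In the thick filament, light chain genes of early muscle rose. Myl4, the atrial and embryonic essential light chain, was at 0.692 and 0.983 FPKM in GM and 11.1 and 14.9 FPKM on DM3 (log2 fold change 3.81 ± 0.56 SE, adjusted p = 0.044). Myl6b, another alkali light chain, was at 5.35 and 4.597 FPKM in GM and 21.9 and 25.9 FPKM on DM3 (log2 fold change 2.24 ± 0.24 SE, adjusted p = 0.024). Myh3, the embryonic myosin heavy chain, was at 1.45 and 0.0513 FPKM in GM and 39.3 and 20.998 FPKM on DM3 (log2 fold change 5.90 ± 1.19 SE, adjusted p = 0.086, adjusted p = 0.028 with the replicate block). Adult heavy chains were low: Myh1 was at 2.302 and 0.0326 FPKM in GM and 4.86 and 2.27 FPKM on DM3 with the groups overlapping (adjusted p = 0.41). Myh7 stayed under the filter, at no more than 0.296 FPKM in any library. The perinatal heavy chain Myh8 also stayed under the filter, at no more than 0.0651 FPKM. Of 22 listed genes 9 were tested and 2 rose (0.767% of all genes), or 3 with the block (1.87% of all genes). All 9 had positive fold changes, and the median was 3.04. The other 13 stayed under the filter. Genes can pass it through the group where they are high, so the common sign and the median are partly set by the filter. The call of Myl4 was lost without GM replicate 2 (adjusted p = 0.073).

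At the Z disc and M band, Ankrd1 and Synpo2 rose. Ankrd1, a stretch-responsive ankyrin repeat protein, was at 23.9 and 31.9 FPKM in GM and 125 and 131 FPKM on DM3 (log2 fold change 2.21 ± 0.20 SE, adjusted p = 0.021). Synpo2, the gene of myopodin, was at 0.935 and 0.506 FPKM in GM and 5.03 and 3.93 FPKM on DM3 (log2 fold change 2.52 ± 0.35 SE, adjusted p = 0.039). The giant proteins were far lower per length: Ttn was at 0.335 and 0.0503 FPKM in GM and 2.11 and 1.32 FPKM on DM3 (adjusted p = 0.15) and Neb at 0.282 and 0.0233 FPKM in GM and 2.16 and 0.9099 FPKM on DM3 (adjusted p = 0.18), in both cases with every DM3 value above every GM value. Des, the muscle intermediate filament gene, was at 26.6 and 16.5 FPKM in GM and 64.8 and 56.6 FPKM on DM3 (adjusted p = 0.29). Of 45 listed genes 32 were tested, 2 rose (0.767% of all genes) and 0 fell, and the median was 2.20. Both DM3 values lay above both GM values for 22 (24.8% of all genes). With the block 3 rose, Myom3 in addition (1.87% of all genes). Myom3 was chosen after its values were seen. The call of Synpo2 was lost without GM replicate 2 (adjusted p = 0.053).

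Excitation-contraction coupling had the most called members of any list, 6 of 27 tested against 0.767% of all genes. Trdn, the gene of triadin, which anchors calsequestrin to the calcium release channel, was at 0.346 and 0.199 FPKM in GM and 26.3 and 23.8 FPKM on DM3 (log2 fold change 6.10 ± 0.58 SE, adjusted p = 0.021). Cacng1, the gamma subunit of the voltage sensor, was at 5.16 and 4.06 FPKM in GM and 56.7 and 56.5 FPKM on DM3 (log2 fold change 3.60 ± 0.47 SE, adjusted p = 0.035), and Stac3, its adaptor, was at 0.433 and 0.285 FPKM in GM and 5.21 and 5.01 FPKM on DM3 (log2 fold change 3.52 ± 0.54 SE, adjusted p = 0.047). In both genes the GM values were close together and far below the DM3 values. Ryr3, a calcium release channel of immature muscle, was at 0.262 and 0.131 FPKM in GM and 5.54 and 4.03 FPKM on DM3 (log2 fold change 4.06 ± 0.50 SE, adjusted p = 0.031). Tmem38a, a potassium channel of the reticulum, and Cavin4, a caveolar coat protein of muscle, rose as well, to 27.02 and 28.6 FPKM from 6.34 and 9.38, and to 98.6 and 98.1 FPKM from 35.7 and 38.9. Ryr1, the channel of adult muscle, was at 0.265 and 0.0616 FPKM in GM and 2.53 and 1.12 FPKM on DM3 (adjusted p = 0.16), Cacna1s at 0.255 and 0.0632 FPKM in GM and 1.99 and 1.17 FPKM on DM3 (adjusted p = 0.2) and the calcium pump Atp2a1, of whose exon length 21.9% overlaps another gene, at 2.497 and 0.387 FPKM in GM and 16.3 and 10.4 FPKM on DM3 (adjusted p = 0.21). Sln, the gene of sarcolipin, was listed at 0 throughout. The median over the list was 1.69, none fell, and 10 rose with the replicate block (1.87% of all genes), where Jph1, Jph2, Srl and Hrc joined. Cacng1, Stac3, Tmem38a, Cavin4, Jph1, Jph2, Srl and Hrc were chosen after their values were seen. The calls of Cacng1, Stac3 and Ryr3 were lost without GM replicate 2 (adjusted p between 0.056 and 0.097).

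The alpha and beta subunits of the muscle acetylcholine receptor rose, as did Lrp4, the receptor of agrin. Chrna1, the alpha subunit, was at 7.04 and 6.19 FPKM in GM and 106 and 95.7 FPKM on DM3 (log2 fold change 3.91 ± 0.54 SE, adjusted p = 0.039). Chrnb1, the beta subunit, was at 1.85 and 1.31 FPKM in GM and 20.1 and 17.4 FPKM on DM3 (log2 fold change 3.5 ± 0.41 SE, adjusted p = 0.029). Lrp4 was at 5.26 and 7.33 FPKM in GM and 38.7 and 23.4 FPKM on DM3 (log2 fold change 2.26 ± 0.35 SE, adjusted p = 0.048). The fetal gamma subunit Chrng was at 1.22 and 0.547 FPKM in GM and 15.02 and 12.1 FPKM on DM3 (adjusted p = 0.099, adjusted p = 0.048 with the replicate block) and the delta subunit Chrnd at 1.39 and 0.315 FPKM in GM and 19.4 and 15.8 FPKM on DM3 (adjusted p = 0.11, adjusted p = 0.038 with the replicate block), so these 4 subunits had DM3 values above every GM value. Rapsn, the receptor's clustering protein, was at 20.3 and 19.02 FPKM in GM and 46.4 and 57.5 FPKM on DM3 (adjusted p = 0.056, adjusted p = 0.046 with the replicate block), and Musk, the kinase of the junction, at 2.18 and 0.658 FPKM in GM and 7.79 and 4.9004 FPKM on DM3 (adjusted p = 0.22). Ache, acetylcholinesterase, did not pass the filter and reached no more than 0.166 FPKM. Of 19 listed genes 14 were tested, 3 rose and 0 fell (0.767% and 0.376% of all genes), and the median was 1.82. With the block 7 rose (1.87% of all genes). Lrp4 was chosen after its values were seen. The calls of Lrp4, Chrna1 and Chrnb1 were lost without GM replicate 2 (adjusted p between 0.054 and 0.081).

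Promoter stretches of 4 of these genes are shown because myogenic factors read such regions: the receptor subunits Chrna1 and Chrnb1, Actc1 as the largest riser, and Myog. Each runs from 140 to 21 bases before the RefSeq start of the gene (build GRCm38.p6, 5′ to 3′ on the gene's strand), with E-boxes (CANNTG, which reads the same on both strands) and, in Actc1, the CArG box in capitals.
Chrna1, chr2:73580359-73580478, minus strand: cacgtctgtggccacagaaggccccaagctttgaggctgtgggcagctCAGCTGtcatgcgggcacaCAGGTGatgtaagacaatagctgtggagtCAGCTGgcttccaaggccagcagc
Chrnb1, chr11:69795958-69796077, minus strand: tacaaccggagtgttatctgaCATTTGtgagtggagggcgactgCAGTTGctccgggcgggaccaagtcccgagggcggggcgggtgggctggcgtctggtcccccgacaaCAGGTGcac
Actc1, chr2:114052896-114053015, minus strand: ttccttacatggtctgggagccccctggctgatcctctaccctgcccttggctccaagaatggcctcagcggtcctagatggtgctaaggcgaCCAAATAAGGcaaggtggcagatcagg
Myog, chr1:134289864-134289983, plus strand: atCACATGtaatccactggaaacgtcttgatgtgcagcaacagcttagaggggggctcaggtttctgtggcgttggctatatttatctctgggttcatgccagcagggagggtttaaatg

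The Chrna1 stretch held 3 E-boxes, starting 92, 73 and 44 bases before the gene, 2 of them of the form CAGCTG, and the Chrnb1 stretch held 3, at 119, 96 and 29 bases. Myog had 1 E-box in the window, and Actc1 had none and a CArG box, the element read by serum response factor, starting 47 bases before the gene. An E-box in this window was found in 40.7% of all 32851 promoters of the table, in 31.5% of those of the 9588 tested genes matched by symbol, in 32 of the 69 matched genes called higher and in 15 of the 35 called lower. CAGCTG, one form of the E-box, was in 6.56% of all promoters and in 5.87% of those of the tested genes. It was in 7 of the 69 matched risers (10.1%) and in 4 of the 35 called lower (11.4%). The CArG box was in 0.804% of all, in 1 of the 69 and in 0 of the 35. These matches describe letters in a window and not binding.

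In the list of the dystrophin glycoprotein complex, which ties the cytoskeleton to the matrix, Sgca and Itga7 rose. Itga7 was listed with the complex as part of a separate laminin receptor. Sgca, alpha-sarcoglycan, was at 1.18 and 1.61 FPKM in GM and 8.32 and 8.21 FPKM on DM3 (log2 fold change 2.50 ± 0.35 SE, adjusted p = 0.039). Itga7, the alpha7 integrin subunit that binds laminin, was at 11.8 and 9.84 FPKM in GM and 54.1 and 41.6 FPKM on DM3 (log2 fold change 2.13 ± 0.21 SE, adjusted p = 0.021). Drp2, a dystrophin-related gene that was chosen after its values were seen, was also called higher, at 0.761 and 0.605 FPKM in GM and 3.47 and 2.68 FPKM on DM3. Dmd was close to 0, with no more than 0.00153 FPKM in any library, while its homologue Utrn was at 8.9003 and 3.78 FPKM in GM and 13.3 and 8.65 FPKM on DM3 (adjusted p = 0.33) and Dag1, dystroglycan, at 101 and 32.7 FPKM in GM and 105 and 71.9 FPKM on DM3, with overlapping groups for Dag1. Of 26 listed genes 23 were tested, 2 rose and 0 fell (0.767% and 0.376% of all genes), with a median of 0.46. With the block 4 rose, Lama2 among them (1.87% of all genes). Lama2 was chosen after its values were seen. The calls of Sgca and Drp2 were lost without GM replicate 2 (adjusted p between 0.054 and 0.084).

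**Figure D3:**
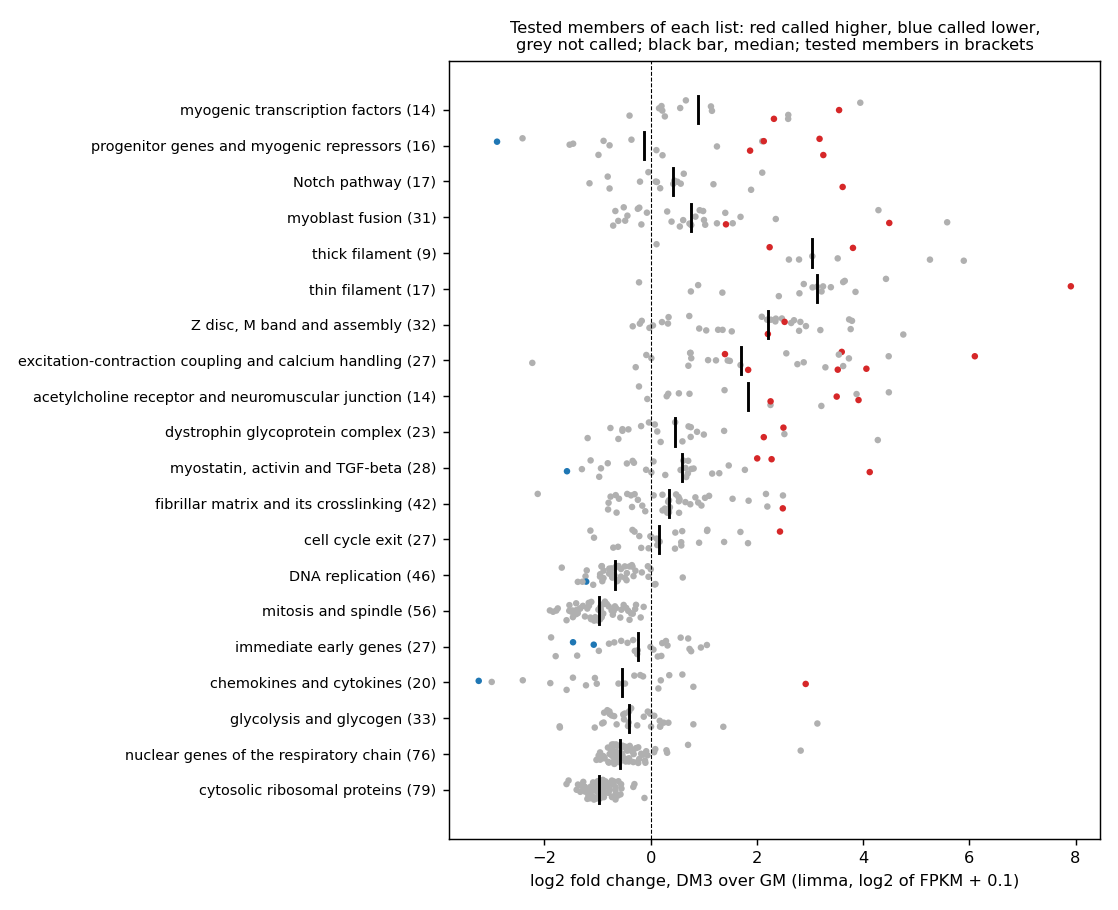
Log2 fold change of each tested member (points) of 20 gene lists, DM3 over GM, with the median as a black bar and the number tested in brackets. Members called higher are red and those called lower blue. The medians of the filament and coupling lists lie between 1.69 and 3.13, those of DNA replication, mitosis and cytosolic ribosomal proteins between -0.97 and -0.68, and most points in every list are grey, that is, not called.

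Of the cell cycle genes, 1 of 102 tested members of the replication and mitosis lists passed the test (0.376% of all genes were called lower). That gene was Rrm2, the small subunit of ribonucleotide reductase, which fell from 121 and 127 FPKM in GM to 53.9 and 52.7 FPKM on DM3 (log2 fold change -1.21 ± 0.17 SE, adjusted p = 0.039), and with the block Cdt1 was called as well. All 56 mitosis genes had negative fold changes, with a median of -0.97. Both DM3 values lay below both GM values for 36, against 22.4% of all genes. The size differed between the pairs: within replicate 1 the median change was -0.20, and within replicate 2 it was -1.88. Cdk1, the mitotic kinase, was at 13.02 and 61.98 FPKM in GM and 9.64 and 10.7 FPKM on DM3 (adjusted p = 0.3): GM replicate 2 stood above all other libraries, and GM replicate 1 lay near DM3. Plk1 and Ccnb1 had the same order, at 17.1 and 69.98 FPKM in GM and 11.8 and 12.6 FPKM on DM3 and at 15.1 and 49.4 FPKM in GM and 12.2 and 12.2 FPKM on DM3. Among 46 replication genes the median was -0.68 (-0.20 in replicate 1 and -1.08 in replicate 2), and 4 had positive values. Mcm2, a helicase subunit, was at 9.11 and 9.8996 FPKM in GM and 7.02 and 6.79 FPKM on DM3 (adjusted p = 0.25), and Pcna at 39.7 and 66.4 FPKM in GM and 34.9 and 40.6 FPKM on DM3 (adjusted p = 0.45). Cdt1 was chosen after its values were seen. The call of Rrm2 was lost without GM replicate 2 (adjusted p = 0.053).

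The list of cell cycle exit, which also holds cyclins, their kinases and E2F factors that drive the cycle, was less uniform. Of 27 tested 1 was called (0.767% of all genes were called higher). E2f2, an activating E2F factor and not itself a gene of exit, was the called member. It rose, at 0.8504 and 0.594 FPKM in GM and 4.72 and 3.901 FPKM on DM3 (log2 fold change 2.44 ± 0.32 SE, adjusted p = 0.037). Cdkn1a, the gene of the inhibitor p21, was at 44.2 and 21.4 FPKM in GM and 102 and 97.2 FPKM on DM3 (adjusted p = 0.083), and Rb1, the retinoblastoma gene, at 6.62 and 6.83 FPKM in GM and 15.98 and 12.5 FPKM on DM3 (adjusted p = 0.07). Ccnd3, a cyclin that persists in myotubes, was at 13.4 and 12.1 FPKM in GM and 14.2 and 14.5 FPKM on DM3. All 3 had DM3 values above all GM values, by the least for Ccnd3, and Cdkn1c had no more than 0.139 FPKM in any library. The median was 0.15, and with the block Ccnd2 also rose (1.87% of all genes). Ccnd2 was chosen after its values were seen. The call of E2f2 was lost without GM replicate 2 (adjusted p = 0.059).

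Of 27 tested immediate early genes, which serum induces, 2 fell. Junb, an AP-1 subunit, was at 184 and 127 FPKM in GM and 53.1 and 57.99 FPKM on DM3 (log2 fold change -1.46 ± 0.22 SE, adjusted p = 0.046). Myc was at 29.8 and 31.1 FPKM in GM and 14.9 and 14.04 FPKM on DM3 (log2 fold change -1.07 ± 0.15 SE, adjusted p = 0.039). For both, the GM values lay above both DM3 values. Fosl1 was at 17.8 and 11.9 FPKM in GM and 5.47 and 5.59 FPKM on DM3 (adjusted p = 0.12), with 57.2% of its exon length overlapping Ccdc85b on the other strand, and Egr1 at 8.24 and 18.8 FPKM in GM and 17.7 and 13.05 FPKM on DM3, with overlapping groups. The median was -0.24, and 0.376% of all genes were called lower. The block added Klf2 as lower (1.11% of all genes). Hmga1b, a copy of a chromatin gene of growing cells, and Socs2, a feedback inhibitor of cytokine signalling, were called lower outside these lists and were chosen after their values were seen. Hmga1b was at 17.6 and 11.6 FPKM in GM and 4.96 and 4.29 FPKM on DM3, where reads may be shared with its near-identical relative Hmga1, and Socs2 was at 5.36 and 6.87 FPKM in GM and 2.15 and 1.76 FPKM on DM3. Klf2 was chosen after its values were seen. The calls of Myc and Socs2 were lost without GM replicate 2 (adjusted p between 0.054 and 0.064).

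**Figure D4:**
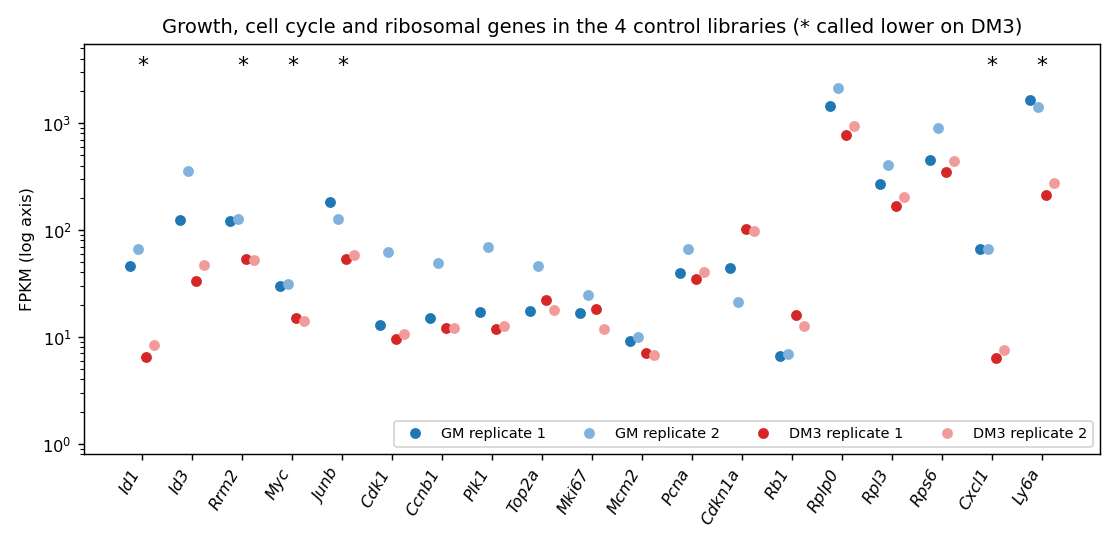
FPKM (log axis) of 19 growth, cell cycle, ribosomal and secreted-factor genes in the 4 control libraries, 1 point per library, with an asterisk over genes called lower on DM3. Id1, Rrm2, Myc, Junb, Cxcl1 and Ly6a have both GM points above both DM3 points and close to each other, whereas Cdk1, Ccnb1 and Plk1 have GM replicate 2 (light blue) alone far above the rest.

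Signalling genes of the TGF-beta family rose in 3 cases and fell in 1 of 28 tested. Tgfb2, a ligand, was at 5.45 and 3.97 FPKM in GM and 26.4 and 19.9 FPKM on DM3 (log2 fold change 2.28 ± 0.29 SE, adjusted p = 0.032). Smad3, the effector of TGF-beta receptors, was at 5.14 and 6.35 FPKM in GM and 25.5 and 21.3 FPKM on DM3 (log2 fold change 2.01 ± 0.23 SE, adjusted p = 0.027). Nog, the gene of the BMP antagonist noggin, was at 0.204 and 0 FPKM in GM and 3.06 and 2.84 FPKM on DM3 (log2 fold change 4.12 ± 0.57 SE, adjusted p = 0.039). Smad6, an inhibitor of BMP signalling and itself a BMP target, fell, with 6.92 and 7.37 FPKM in GM and 2.33 and 2.32 FPKM on DM3 (log2 fold change -1.58 ± 0.23 SE, adjusted p = 0.044). Inhba was at 3.25 and 3.32 FPKM in GM and 9.48 and 9.08 FPKM on DM3 (adjusted p = 0.072), and Mstn, the gene of myostatin, was listed at 0 in all 4 libraries. The list had a median of 0.59, and of all genes 0.767% were called higher and 0.376% lower. Smad3 was chosen after its values were seen. The calls of Tgfb2 and Smad6 were lost without GM replicate 2 (adjusted p between 0.059 and 0.081).

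Other signalling lists had few calls, where 0.767% of all genes were called higher and 0.376% lower. Wnt9a rose, at 2.14 and 2.55 FPKM in GM and 9.41 and 8.54 FPKM on DM3 (log2 fold change 1.89 ± 0.21 SE, adjusted p = 0.025), as the one called Wnt gene of 26 tested, and Sfrp2, a Wnt antagonist, was at 179 and 279 FPKM in GM and 85.1 and 77.7 FPKM on DM3 (adjusted p = 0.079, adjusted p = 0.04 with the replicate block). Cxcl1, a neutrophil chemokine that growing myoblasts release, fell from 66.1 and 66.1 FPKM to 6.36 and 7.53 FPKM (log2 fold change -3.24 ± 0.28 SE, adjusted p = 0.021). Lif, a cytokine of the interleukin 6 family, rose at a low level, 0.195 and 0.143 FPKM in GM and 2.29 and 1.62 FPKM on DM3 (log2 fold change 2.92 ± 0.41 SE, adjusted p = 0.039). These were the 2 calls among 20 chemokine and cytokine genes, whose median was -0.54, and the block added Cxcl5 as lower. In the insulin-like growth factor axis none of 17 tested genes was called (Igfbp6 fell with the block): Igfbp5 was at 25.9 and 15.6 FPKM in GM and 77.1 and 49.5 FPKM on DM3 (adjusted p = 0.22) and Igf1 at 1.47 and 4.46 FPKM in GM and 7.67 and 5.51 FPKM on DM3 (adjusted p = 0.25). Igf2 had at most 0.0385 FPKM, and the imprinted genes Dlk1 and Meg3 were listed at 0, whereas the imprinted RNA H19 was at 249 and 49.7 FPKM in GM and 1111 and 1060.2 FPKM on DM3 (adjusted p = 0.3). Cxcl5 and Igfbp6 were chosen after their values were seen. The call of Lif was lost without GM replicate 2 (adjusted p = 0.073).

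Among matrix and cytoskeletal genes, Tnc, Adamts4, Nes, Myl9 and Actg2 rose (0.767% of all genes were called higher). Tnc, the gene of tenascin C, was at 3.21 and 3.53 FPKM in GM and 26.2 and 14.3 FPKM on DM3 (log2 fold change 2.49 ± 0.33 SE, adjusted p = 0.035), and it was the one called gene of 42 matrix genes (median 0.34). With the block Col12a1 rose and Fbln1 fell in addition. Adamts4, a protease of matrix proteoglycans, was at 2.07 and 3.06 FPKM in GM and 22.5 and 15.9 FPKM on DM3 (log2 fold change 2.86 ± 0.29 SE, adjusted p = 0.022), the one call among 22 proteases and inhibitors, where the block added Adamts5, Adam19 and Plau. Collagen and fibronectin genes spread widely between replicates: Fn1 was at 99.997 and 216 FPKM in GM and 626 and 293 FPKM on DM3 (adjusted p = 0.24) and Col3a1 at 180.0 and 312 FPKM in GM and 493 and 366 FPKM on DM3 (adjusted p = 0.27). Nes, the gene of the intermediate filament nestin, was at 9.2998 and 15.4 FPKM in GM and 163 and 109 FPKM on DM3 (log2 fold change 3.47 ± 0.31 SE, adjusted p = 0.021). Myl9, a regulatory light chain of nonmuscle and smooth muscle myosin, was at 8.07 and 9.98 FPKM in GM and 73.9 and 89.03 FPKM on DM3 (log2 fold change 3.16 ± 0.26 SE, adjusted p = 0.021), and Actg2, a smooth muscle actin, was at 6.34 and 8.11 FPKM in GM and 20.03 and 20.6 FPKM on DM3 (log2 fold change 1.49 ± 0.21 SE, adjusted p = 0.039). Acta2, the other smooth muscle actin, was at 379 and 562 FPKM in GM and 1708 and 1922 FPKM on DM3 (adjusted p = 0.068, adjusted p = 0.044 with the replicate block). The 9 smooth muscle markers, which include Des, took 0.178% and 0.169% of FPKM in GM and 0.725% and 0.764% on DM3, mostly through Acta2. Of the 7 tested, 4 had both DM3 values above both GM values and 2 below (24.8% and 22.4% of all genes). Their median was 0.92. Tagln, of whose exon length 67.9% overlaps another gene, was at 23.6 and 38.9 FPKM in GM and 50.5 and 65.2 FPKM on DM3, Smtn at 28.9 and 23.6 FPKM in GM and 15.5 and 13.1 FPKM on DM3 and Lmod1 at 22.6 and 7.27 FPKM in GM and 6.72 and 7.06 FPKM on DM3, whereas Myh11 and Cnn1 had at most 0.0158 and 0.0659 FPKM and Myocd was at 0. Col12a1, Fbln1, Adamts5, Adam19, Plau, Smtn, Lmod1 and Myocd were chosen after their values were seen. The call of Tnc was lost without GM replicate 2 (adjusted p = 0.061).

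Isoform use was compared as the share of a muscle paralog in the FPKM of a pair with its general counterpart, over 30 pairs. The share was higher in both DM3 libraries than in both GM libraries in 17 pairs, lower in 2 and overlapping or not defined in 11. The widest GM gap was in the ankyrin pair, with Ank1 at 65.9% and 88.5% of Ank1 and Ank2. Actin came next, with Acta1 at 15.4% and 0.793% of Acta1 and Actb in GM and 32.3% and 36.6% on DM3. Muscle creatine kinase Ckm took 21.5% and 7.22% of Ckm and Ckb in GM and 44.8% and 43.96% on DM3. Muscle glycogen phosphorylase Pygm took 2.42% and 0.592% of its pair with Pygb in GM and 18.99% and 14.9% on DM3, and the calcium pump Atp2a1 took 4.58% and 1.57% of its pair with Atp2a2 in GM and 19.5% and 16.4% on DM3. The glycolytic enzymes shifted less but with close replicates: Eno3 went from 46.6% and 48.2% to 57.9% and 57.97% of Eno3 and Eno1, and Pfkm from 42.4% and 39.9% to 55.1% and 55.5% of Pfkm and Pfkl. The adenine nucleotide carrier Slc25a4 went the other way, from 52.1% and 56.8% to 49.5% and 49.98%, as did the adenylosuccinate synthase pair, in which the muscle gene went from 68.1% and 64.02% to 53.4% and 53.3%. By the limma test none of the 19 tested muscle members was called, with a median log2 fold change of 1.37, against -0.37 for the 27 general members, of which Mef2a was called. Ckm itself was at 0.896 and 0.462 FPKM in GM and 5.65 and 6.33 FPKM on DM3 (adjusted p = 0.066, adjusted p = 0.04 with the replicate block), and Pygm at 0.498 and 0.129 FPKM in GM and 3.76 and 2.65 FPKM on DM3 (adjusted p = 0.091, adjusted p = 0.038 with the replicate block).

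**Figure D5:**
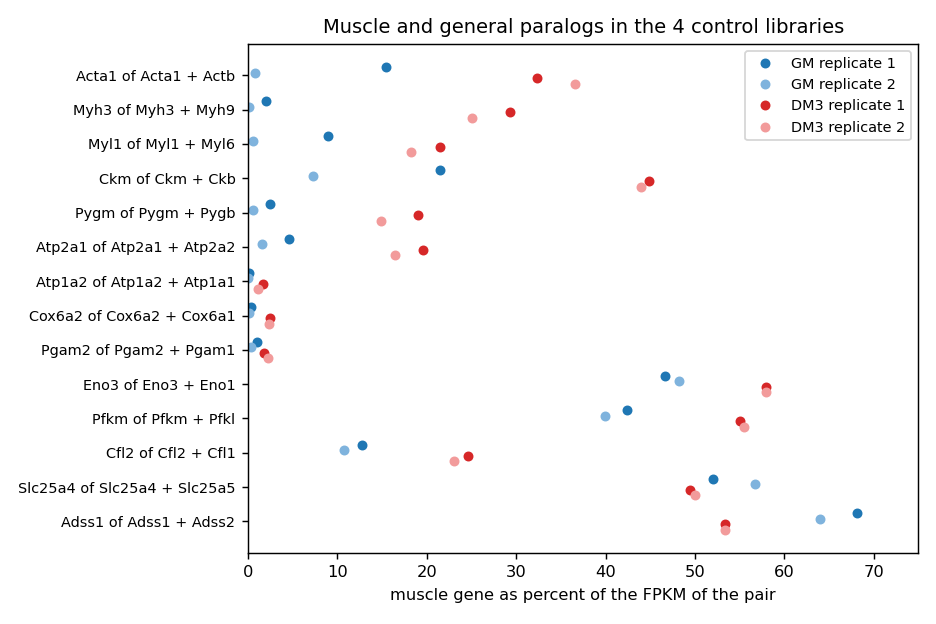
Share of the muscle gene in the summed FPKM of 14 paralog pairs (x axis, percent), 1 point per control library. Red points (DM3) lie to the right of blue points (GM) in all pairs but the last, Slc25a4 and Adss1, where they lie to the left, and the GM replicates are farthest apart for Acta1, Ckm and Myl1.

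Metabolic and ribosomal lists had no called member in this fit. Glycolysis and glycogen genes had a median of -0.41 over 33 tested, the TCA cycle and fatty acid oxidation -0.13 over 43, nuclear genes of the respiratory chain -0.58 over 76 and mitochondrially encoded genes 0.05 over 13. Of all genes, 22.4% had both DM3 values below both GM values. All 79 tested genes of cytosolic ribosomal proteins had negative fold changes (median -0.97), and 44 of them had that order. They took 7.09% and 12.4% of the FPKM outside ribosomal RNA in GM and 4.88% and 6.59% on DM3, with the change larger within replicate 2 (median -1.37) than within replicate 1 (-0.55). Rplp0, a stalk protein, was at 1438 and 2148 FPKM in GM and 769.6 and 934 FPKM on DM3 (adjusted p = 0.21), and Rpl3 at 269 and 407 FPKM in GM and 169 and 205 FPKM on DM3 (adjusted p = 0.2). Genes of nucleolar ribosome assembly had a positive median of 0.34 over 40 tested, again with none called. Ribosomal protein mRNAs are short, and the library richest in them, GM replicate 2, was also the one richest in ribosomal RNA reads, and the part of library composition in this difference was not tested.

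Other processes gave no call in this fit. The 24 tested cholesterol genes had a median of 0.19, 19 m6A writers, erasers and readers 0.11, 37 interferon response genes 0.06, 19 MHC class I and immunoproteasome genes -0.16 and 29 stress response genes 0.17. The medians were -0.11 over 26 atrophy and autophagy genes, 0.10 over 26 apoptosis genes, -0.20 over 13 tubulins, 0.15 over 19 clock genes, -0.20 over 14 genes of creatine and adenylate buffering and -0.18 over 7 imprinted growth genes. With the block, 1 gene each was called in the stress list (Mthfd2), the creatine list (Ckm), the glycolysis list (Pygm) and the mitochondrially encoded list (mt-Atp8). A call that was missed does not show that a gene stayed the same, and the GM libraries spread widely. Mthfd2 was chosen after its values were seen.

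Across all genes, several of the largest rises lay outside the muscle lists. C1qtnf3, a secreted protein of the C1q and tumour necrosis factor family, was at 2.63 and 3.28 FPKM in GM and 141 and 135 FPKM on DM3 (log2 fold change 5.51 ± 0.54 SE, adjusted p = 0.021). Frmpd1 was at 0.1595 and 0.0389 FPKM in GM and 7.56 and 5.35 FPKM on DM3 (log2 fold change 5.09 ± 0.61 SE, adjusted p = 0.03). Gm39090, annotated as a long intergenic RNA, was at 0.511 and 0.177 FPKM in GM and 8.49 and 8.48 FPKM on DM3 (log2 fold change 4.38 ± 0.48 SE, adjusted p = 0.024). A second set came up from almost no reads: Mucl1 was at 0.0395 and 0 FPKM in GM and 9.06 and 9.12 FPKM on DM3 (adjusted p = 0.0044), with 1 read in GM, Mup5 was listed at 0 in both GM libraries and at 4.1002 and 5.85 FPKM on DM3 (adjusted p = 0.023), and Gm34531 at 0 in GM and 2.56 and 3.35 FPKM on DM3 (adjusted p = 0.037). The kallikrein gene Klk1b27 was at 0.248 and 0 FPKM in GM and 3.94 and 5.68 FPKM on DM3 (adjusted p = 0.044) and its relative Klk1b14-ps at 0.729 and 0 FPKM in GM and 22.5 and 27.4 FPKM on DM3 (adjusted p = 0.044). Klk1b and Mup genes form families of near-identical copies, so reads may be shared among members and these rows are uncertain. Besides these, Cdh15, Actc1 and Trdn above were among the 12 largest rises. The calls of Frmpd1, Gm34531 and Klk1b27 were lost without GM replicate 2 (adjusted p between 0.053 and 0.067).

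Some further risers were chosen after their values were seen. Cdon, a receptor that promotes myogenesis at cell contacts, was at 5.09 and 6.31 FPKM in GM and 70.6 and 52.3 FPKM on DM3 (log2 fold change 3.40 ± 0.22 SE, adjusted p = 0.014). Tgm2, transglutaminase 2, was at 9.25 and 5.28 FPKM in GM and 58.3 and 49.3 FPKM on DM3 (log2 fold change 2.92 ± 0.28 SE, adjusted p = 0.021). Aif1l, an actin-binding protein, was at 4.81 and 4.65 FPKM in GM and 38.7 and 37.6 FPKM on DM3 (log2 fold change 2.99 ± 0.15 SE, adjusted p = 0.0044). Prkag3, an AMPK subunit of skeletal muscle, was at 0.265 and 0.141 FPKM in GM and 4.19 and 3.95 FPKM on DM3 (adjusted p = 0.026), and Hacd1, a muscle enzyme of long-chain fatty acid synthesis, at 9.58 and 13.4 FPKM in GM and 32.9 and 37.3 FPKM on DM3 (adjusted p = 0.039). Sox8, a regulator found in satellite cells, was listed at 0 in both GM libraries and at 1.51 and 1.45 FPKM on DM3 (adjusted p = 0.031). Fndc5, the gene of the irisin precursor, was at 0.0114 and 0 FPKM in GM and 1.62 and 1.65 FPKM on DM3 (adjusted p = 0.032), where GM held 1 read. The calls of Sox8 and Fndc5 were lost without GM replicate 2 (adjusted p between 0.053 and 0.058).

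The largest falls over all genes included Slpi, Rasl11a, Sparcl1, Mgst2, Lxn and Ly6a. Slpi, a secreted protease inhibitor, was at 3.79 and 2.19 FPKM in GM and 0.0927 and 0.0509 FPKM on DM3 (log2 fold change -4.13 ± 0.43 SE, adjusted p = 0.022), with 4 reads in all on DM3. Rasl11a, a small GTPase, was at 22.3 and 9.92 FPKM in GM and 1.15 and 1.201 FPKM on DM3 (log2 fold change -3.55 ± 0.38 SE, adjusted p = 0.023). Sparcl1, a matrix protein related to Sparc, was at 28.2 and 31.3 FPKM in GM and 4.68 and 4.36 FPKM on DM3 (log2 fold change -2.69 ± 0.18 SE, adjusted p = 0.014). Mgst2, a microsomal glutathione transferase, was at 3.601 and 5.87 FPKM in GM and 0.236 and 0.487 FPKM on DM3 (log2 fold change -3.40 ± 0.38 SE, adjusted p = 0.026), and 2 cytosolic glutathione transferases chosen after their values were seen fell as well. Gstm1 was at 207 and 172 FPKM in GM and 62.4 and 73.9 FPKM on DM3, and Gstt1 at 6.92 and 7.18 FPKM in GM and 1.84 and 2.24 FPKM on DM3. Lxn, a carboxypeptidase inhibitor, was at 64.4 and 117 FPKM in GM and 9.33 and 13.2 FPKM on DM3 (log2 fold change -2.96 ± 0.43 SE, adjusted p = 0.041). Ly6a, the surface antigen Sca-1 of progenitors, fell from 1654 and 1413 FPKM to 213 and 275 FPKM (log2 fold change -2.66 ± 0.37 SE, adjusted p = 0.039), the most abundant RNA among the genes called lower. Lgals3, the gene of galectin 3 and also chosen after its values were seen, was at 467 and 608 FPKM in GM and 127 and 166 FPKM on DM3 (adjusted p = 0.042). The calls of Lxn, Ly6a, Gstm1 and Lgals3 were lost without GM replicate 2 (adjusted p between 0.051 and 0.074).

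Of the remaining largest falls, Gm8300, a predicted gene that may share reads with close copies, was at 79.5 and 62.3 FPKM in GM and 6.23 and 5.65 FPKM on DM3 (log2 fold change -3.55 ± 0.34 SE, adjusted p = 0.021), Lce1g at 6.15 and 5.93 FPKM in GM and 0.552 and 1.04 FPKM on DM3 (adjusted p = 0.039) and Gm37800, a long intergenic RNA, at 3.19 and 5.83 FPKM in GM and 0.4398 and 0.664 FPKM on DM3 (adjusted p = 0.032). The call of Mir3091, listed at 0 on DM3, rests on 4 and 2 reads over its hairpin in GM, so it rests on few reads. Ly6a is also a marker of fibroadipogenic cells, and it was the 1 called gene of 9 tested markers of that kind, of which Thy1 was listed at 0 in GM and Pdgfra was at 32.9 and 6.76 FPKM in GM and 3.85 and 3.27 FPKM on DM3 (adjusted p = 0.28). Cd14 was the 1 called gene of 3 tested leukocyte markers, at 15.8 and 15.4 FPKM in GM and 5.98 and 7.08 FPKM on DM3 (log2 fold change -1.25 ± 0.18 SE, adjusted p = 0.04), while Ptprc was listed at 0. Summed, the leukocyte markers took 0.00946% and 0.00443% of FPKM in GM and 0.00323% and 0.00343% on DM3. None of 4 adipocyte, 5 osteoblast or cartilage and 1 endothelial markers tested was called, and Actg2 was the 1 of 7 smooth muscle markers. Over all genes, 0.767% were called higher and 0.376% lower. The calls of Lce1g, Mir3091 and Cd14 were lost without GM replicate 2 (adjusted p between 0.061 and 0.09).

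Within each replicate number the direction of change could be read without pooling, as values with no test. The sign was the same in both pairs for 9172 of 13824 genes (66.3%), and the log2 changes correlated at r = 0.385 across genes, which are not independent. In replicate 1, 363 genes were higher and 319 lower by a log2 of at least 2, and in replicate 2, which includes the GM library that stood apart, 614 and 579. Both pairs passed that size in the same direction for 204 rises and 59 falls, and in opposite directions for 45 genes. Filament genes had larger changes in replicate 2: the median change of the thin filament list was 2.21 in replicate 1 and 3.79 in replicate 2, and that of the thick filament list 2.46 and 4.16. The coupling list was steadier, at 1.88 and 1.6, as was the receptor list, at 1.56 and 1.63. Postn, the gene of periostin, was an extreme of the GM gap, at 152 and 3.93 FPKM in GM and 150.1 and 129 FPKM on DM3: its change was near 0 in replicate 1 and large in replicate 2. What set the GM libraries apart was not tested.

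The same stages of the line with reduced Mettl3 give the values to set beside the control course. For 151 of the 158 genes called in control cells the change in the knockdown line was smaller, and for 140 it had the same sign. Actc1 was at 1.16 and 0.101 FPKM in GM and 1.09 and 0.547 FPKM on DM3 there, Mymk at 11.8 and 0.613 FPKM in GM and 4.58 and 3.47 FPKM on DM3 and Myod1 at 5.58 and 2.17 FPKM in GM and 4.55 and 4.17 FPKM on DM3. The median log2 fold change of the thin filament list was -0.47 in the knockdown line, against 3.13 in control cells, and that of the coupling list -0.08 against 1.69. The median of the mitosis list was -2.28 there, against -0.97. The test of the difference, the interaction of line and stage, called 0 of 13824 genes in limma (530 with a higher and 668 with a lower change in the knockdown line at an unadjusted p under 0.05, lowest adjusted p = 0.14), so no gene is called particular to the control line. Because the 158 genes were selected in control cells, a smaller change elsewhere is partly built into the selection. The 7 called genes whose change was not smaller there were Socs2, Rrm2, Msln, Fndc1, Tspan8, Klk1b27 and Mucl1. Mucl1 was at 0.0398 and 0 FPKM in GM and 11.7 and 10.9 FPKM on DM3 in that line, and Rrm2 at 182 and 156 FPKM in GM and 21.97 and 21.7 FPKM on DM3. Msln, Fndc1 and Tspan8 were chosen after their values were seen.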

How the data were processed

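mRNA-seq values (SMARTER kit, total RNA) of the 4 control libraries were read from 1 table of 8 libraries. The FPKM values were deposited by the authors, who aligned reads with HISAT2 to GRCm38 (mm10 is named beside it in the submitters' processing notes), counted them per Ensembl gene with featureCounts and scaled them with the fpkm function of DESeq2, with versions and strand setting not given in the sources used here. The divisor differs from the read total in each library, most in GM replicate 2, so values rest on the authors' scaling factors, which can move every gene of a library together. From there, limma 3.58.1 (R 4.3.3) was fitted to log2(FPKM + 0.1) of all 8 libraries with 1 term per group and a mean-variance trend, for genes reaching 0.5 FPKM in 2 or more libraries, so fold changes of low genes are understated. p-values were two-sided and adjusted by Benjamini-Hochberg over all genes tested, with a call at 0.05 or below, and scripts were tested on simulated data. Tables were made with Python 3.11.15 and pandas 2.3.3. Exon positions and overlaps came from the annotation of GRCm38, and promoters from a RefSeq table of GRCm38.p6.

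Deviations of same-numbered libraries from their group means correlated in all 6 pairs of groups (0.278 to 0.68, and 0.374 between the control groups). The labels give no reason for it. The replicate number was therefore fitted as a block in an alternative. The main fit had no such term, and it gave the calls, SE and adjusted p-values that are printed without mention of the block or another setting. The blocked value is printed where it changed a call. Where a symbol had several rows, the row with the higher mean was used. The genes in the text were the study's genes of differentiation, the leading genes of each list, the largest called changes per list (2 each way) and over all genes (12 each way), the members of 30 paralog pairs and the most abundant genes (10 per group), with others marked as chosen after their values were seen. The lists, 1248 different gene symbols in 45 lists, and the comparison itself were chosen with earlier results of these data known. The authors' other tables were not used here. Alternatives were pseudocounts of 1 and 0.01, other filters, median-ratio and quantile scaling, the control libraries alone, the replicate block and each control library left out. Some genes are not reported here.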

Additional observations from a re-analysis of the deposited data

How the results depend on the processing

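Counts of calls depended on the setting far more than directions did. At an adjusted p of at most 0.05, where 106 genes were higher and 52 lower, a pseudocount of 1 gave 188 higher, no filter on low values gave 22 lower, and the control libraries alone gave 0 and 0. With the log2 fold of at least 2 as well, where 74 were higher and 22 lower, a pseudocount of 1 gave 14 lower, no filter gave 11 lower, and the control libraries alone gave 0 and 0. The replicate block gave 258 higher and 153 lower, or 131 and 50 with the fold. Leaving out each control library in turn gave between 0 and 1767 higher and between 0 and 1917 lower, or between 0 and 402 and between 0 and 387 with the fold. The block without GM replicate 2, chosen after seeing the data, gave 75 higher and 51 lower, of which 73 were among the 158. The interaction with the knockdown line gave 0 calls in every setting run. Of the 110 genes given with a test, none changed direction in any setting. The replicate block moved 10 of them past the threshold, as printed beside each, and changed no other call among them. Quantile normalization moved 3 past it and lost 4. The control libraries alone lost 65, no filter on low values lost 30 and a pseudocount of 0.01 lost 12. A pseudocount of 1 moved 7 past the threshold. Leaving out a control library also changed calls among them, and whether calls were gained or lost depended on the library. The cause of these changes was not tested. Depth limits low genes most: 1 read in GM replicate 2 is worth more FPKM than 1 read in GM replicate 1.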
